A study of Mus musculus with 2 samples.

Results

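Splice junctions that connect a pair of exon ends already known from annotation, but in a combination that the annotation does not list, were examined in the developing central nervous system of the mouse (strain C57BL/6J, embryonic day 14). The members were chosen by read counts and by position. A junction of the deposited mm9 junction table was selected where it had at least 10 reads in each of the fields R1 and R2, was not an intron of the deposited Ensembl 65 exon table, and ran from an annotated exon end to an annotated exon start on the same strand. This gave 3194 junctions of 1302067 in the table. Of the 164144 junctions with at least 10 reads in both fields, 145177 were introns of the annotation, 3194 were members, 9092 had 1 known end and 6681 had none.

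The labels describe 1 group with 2 biological replicates, each a pool of male and female littermates that share a donor identifier, so there is no contrast between conditions. Per the labels, the libraries kept the strand, were sequenced from both ends, and came from polyadenylated RNA after ribosomal RNA had been removed. Fields R1 and R2 held 52713700 and 71600793 junction reads, and no label ties a field to a numbered replicate. Neural markers were high in both mm10 replicates, with Tubb3 at 1820 TPM in replicate 1 and 2133 TPM in replicate 2, while markers of other tissues were far apart, with the muscle myosin Myh3 at 32.1 and 0.34 TPM and the keratin Krt5 at 48.0 and 4.61 TPM.

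In splicing, the spliceosome joins the end of an upstream exon, the donor, to the start of a downstream exon, the acceptor. An exon that is left out is said to be skipped, and neurons are known for skipping and including many exons, among them very short microexons, in genes of the cytoskeleton, of adhesion and of synapses. A skipped coding exon keeps the reading frame where its length is a multiple of 3. Genes that lie next to a near-identical copy pose a separate problem, because a read across a join may match either copy.

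The members fell into 3 classes. Most skipped annotated exons inside 1 gene (2358, or 73.8% of members, with a 95% Wilson interval of 72.3 to 75.3%). A further 695 (21.8%, interval 20.4 to 23.2%) joined exons of 2 different genes, and 141 (4.41%, interval 3.76 to 5.18%) stayed inside 1 gene without skipping a whole exon. The reads were divided the other way round. Joins between 2 genes held 307855 of the 409835 member reads in R1 and 317169 of 456260 in R2 (75.1% and 69.5%), whereas skips held 92561 and 125912 reads (22.6% and 27.6%). Of the 66 members with at least 1000 reads in both fields together, 50 joined 2 genes and 16 lay within 1 gene. All members made up 0.777% of the junction reads of R1 and 0.637% of those of R2, against 94.9% and 95.1% for annotated junctions with at least 10 reads in each field.

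Both ends of 3167 members were splice sites of annotated introns, and in 27 members at least 1 end was an exon edge that no annotated intron uses. The median member had 21 reads in R1 and 30 in R2, against 143 and 189 for annotated junctions. In 256 members the lower field stood at exactly 10 reads, and 321 further junctions that met the other criteria had a lower field of 9. The table's own flag for the splice site type was set for 3186 of 3194 members, and it was not set for 408 of the 145177 annotated junctions and for 3906 of the 15773 other unannotated ones. Introns of members had a median length of 7065 bases, from 78 to 678207, against 1368 bases for annotated junctions.

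**Figure D1:**
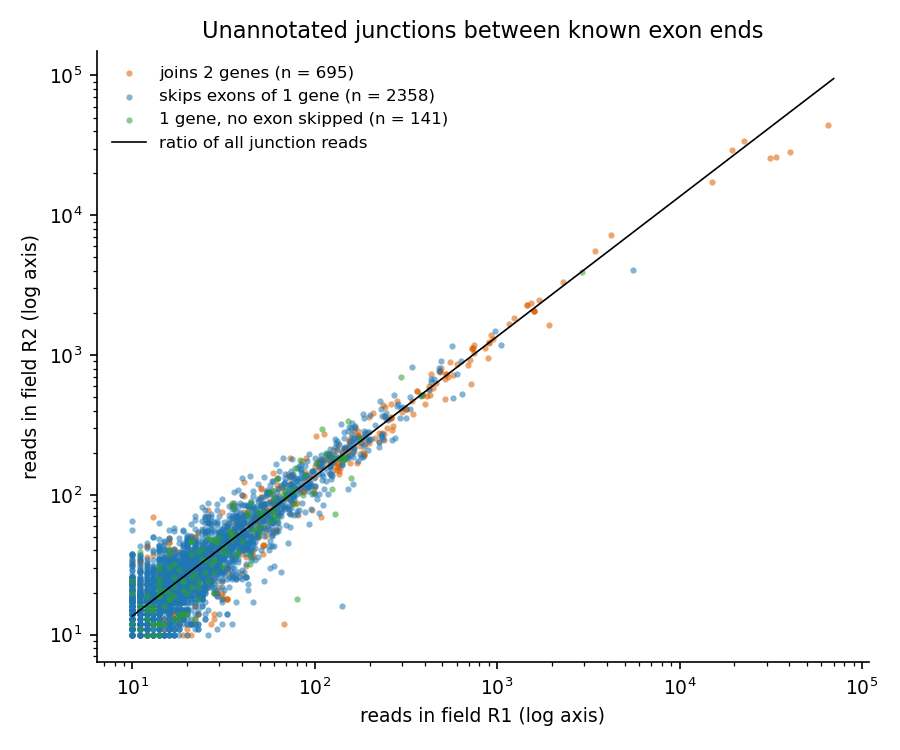
Each point is 1 of the 3194 members, with its reads in field R1 on the horizontal and in field R2 on the vertical axis, both on log scales, coloured by class. The line marks the ratio of all junction reads, 71600793 to 52713700. Joins between 2 genes reach the highest counts, up to 65046 reads in R1 and 44225 in R2.

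The sequences at 2 kinds of join are shown, because they are what distinguishes the members with the most reads from those that leave out an exon. For joins between 2 genes, the last 15 bases of the donor exon are in lower case and the first 15 of the acceptor exon are in capitals. The same string is read from the join of the alpha-globin genes Hba-a1 and Hba-a2 and from the annotated joins inside each of these genes, and likewise for the tubulin genes.
Hba-a1 to Hba-a2, downstream join: cccgtcaacttcaagCTCCTGAGCCACTGC
Hba-a1 to Hba-a2, upstream join: tgaagccctggaaagGATGTTTGCTAGCTT
Hbb-bs to Hbb-bt: cctgagaacttcaggCTCCTGGGCAATATG
Tuba1a to Tuba1b: aacccacggtcatcgATGAAGTTCGCACCG

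For skips of 1 exon, the join made by the member is given in the same way, and the next line gives in capitals the coding exon that the member leaves out.
Ptprz1 join: actgaagaatttgagGAAGTGCAGAGCTGT
Ptprz1 skipped exon: ACACTGAAAGAGTTTTACCAG
Srcin1 join: aggatgcgagaacagACCCGCAGCTCGCGC
Srcin1 skipped exon: CAACCAAACTACTGGAGTTTCAAG
Ptprk join: gccaactacatcgacGGCTACCAGAGACCA
Ptprk skipped exon: ATTTGGCTGTACAGGGAT
Nrcam join: cgactgtggacgaagCAATGGCAAGCCGGC
Nrcam skipped exon: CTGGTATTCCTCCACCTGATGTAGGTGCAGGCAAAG
Kif1b join: gagatattattgataATCTGAAAGATTTTC
Kif1b skipped exon: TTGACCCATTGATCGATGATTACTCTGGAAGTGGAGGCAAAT
Epn1 join: gaggaggccgaccagGAAGAGCGGATCCGT
Epn1 skipped exon: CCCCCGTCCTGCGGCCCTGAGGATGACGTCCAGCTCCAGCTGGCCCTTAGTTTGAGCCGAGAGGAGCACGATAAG
Nova1 join: gatcgcatcaaacaaGTAAAGATTATAGTT
Nova1 skipped exon: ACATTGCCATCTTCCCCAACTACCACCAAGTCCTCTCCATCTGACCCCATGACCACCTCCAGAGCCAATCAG

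Among the 2358 skips, 2246 had both ends in the same annotated transcript, and 112 combined ends of different transcripts of the gene. Of the 2246, 2003 skipped 1 exon, 174 skipped 2, 38 skipped 3 and 31 skipped 4 or more. Usage of a single-exon skip was measured as the skip's reads divided by these reads plus the mean of the 2 junctions that include the exon. The median usage was 8.04% (7.97% in R1 and 7.73% in R2), with quartiles of 3.29 and 20.7%. For 5014 annotated junctions that skip 1 exon of another transcript, measured with the same minimum of reads, it was 78.0%. The sets differ in the exons skipped. Of those with a sequence, 84.2% were coding for unannotated skips and 54.4% for annotated ones. For coding exons alone the medians were 6.94 and 42.2%. Usage of at least 50% was seen in 209 unannotated skips (10.4%) and in 3251 annotated ones (64.8%), and usage under 5% in 725 (36.2%) and 232 (4.63%). The fields differed by a median of 1.39 percentage points per unannotated skip and 1.81 per annotated skip.

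**Figure D2:**
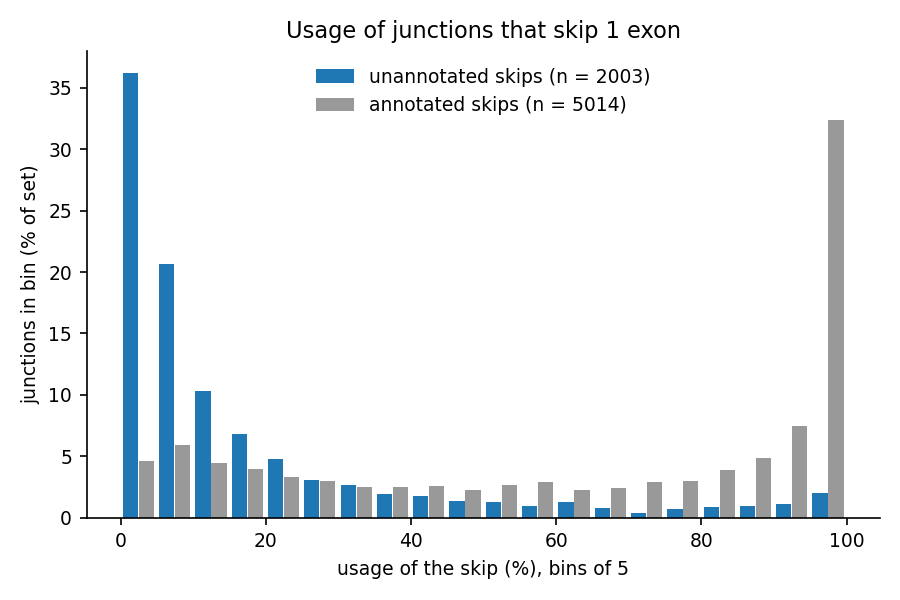
Bars give the percentage of each set in bins of 5 percentage points of usage (mean of R1 and R2), for 2003 unannotated and 5014 annotated single-exon skips. The first bin holds 36.2% of the unannotated skips and 4.63% of the annotated ones, and the last bin holds 2.00% and 32.4%.

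The skip with the most reads lay in Serpinh1, the collagen chaperone of the endoplasmic reticulum (chromosome 7, 106497975 to 106501562, minus strand). It had 5527 reads in R1 and 4041 in R2, against 103 and 87 reads, and 84 and 38 reads, on the junctions that include the skipped exon of 44 bases. Usage was therefore 98.3 and 98.5%, and the exon was the rare form. A transcript with an intron of this length in the gene was listed in the deposited mm10 table at 349 TPM in replicate 1 and 183 TPM in replicate 2.

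Epn1, an adaptor protein of clathrin-mediated endocytosis, followed with 969 and 1475 reads (chromosome 7, 5044568 to 5045500). The skipped exon, the fifth of 11, has 75 bases, and usage was 65.3% in R1 and 66.7% in R2. This skip was not found in the later GENCODE M21 annotation. Atp6v1h, a subunit of the proton pump of acidic vesicles, left out a coding exon of 54 bases with 636 and 901 reads, at 55.6 and 52.1% usage. A transcript of the gene with an intron of this length in the mm10 table had 32.9 and 37.0 TPM.

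2 of the 5 skips with the most reads lay in long non-coding RNAs. Meg3, an imprinted RNA, had 1047 and 1171 reads on a skip of 74 bases at only 3.92 and 4.04% usage, since its inclusion junctions held 20973 to 30332 reads. Pantr1, a non-coding RNA next to a neural transcription factor gene, had 565 and 1168 reads at 59.2 and 59.3% usage for an exon of 47 bases.

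The amyloid precursor gene App is the best known case among the named members (chromosome 16, 85030611 to 85043820, minus strand). The skipped exon has 57 bases and follows an exon of 168 bases, which is known to encode the Kunitz protease inhibitor domain. The skip had 638 reads in R1 and 530 in R2, and the inclusion junctions had 688 and 432 reads on one side and 699 and 369 on the other. Usage was 47.9 and 57.0%. From the donor of the 168-base exon the skip took 47.6 and 58.8% of reads, whereas at the acceptor it shared with other forms it took 11.9 and 8.49%.

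Among 10 skips with the highest usage at a mean of at least 100 reads, usage ran from 91.0 to 100% in single fields. In Ryr1, the calcium release channel of muscle, an exon of 15 bases was skipped by 106 and 101 reads while both inclusion junctions had 0 reads in both fields. Prdm10, a zinc finger factor, had 131 and 234 reads and likewise no read into its skipped exon of 36 bases. Sec31a, a coat protein of vesicles that leave the endoplasmic reticulum, had 318 and 357 reads against at most 2 into an exon of 39 bases, but of all reads at its acceptor the skip took only 43.1 and 51.7%. The others were Serpinh1, Hnrnpu, Tacc2, an unnamed gene on chromosome 12, Tmem87b, Ubn1 and Ube2f. In all, 17 of 2003 single-exon skips had no read on either inclusion junction in either field, and 56 had a usage of at least 90% in both.

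**Figure D3:**
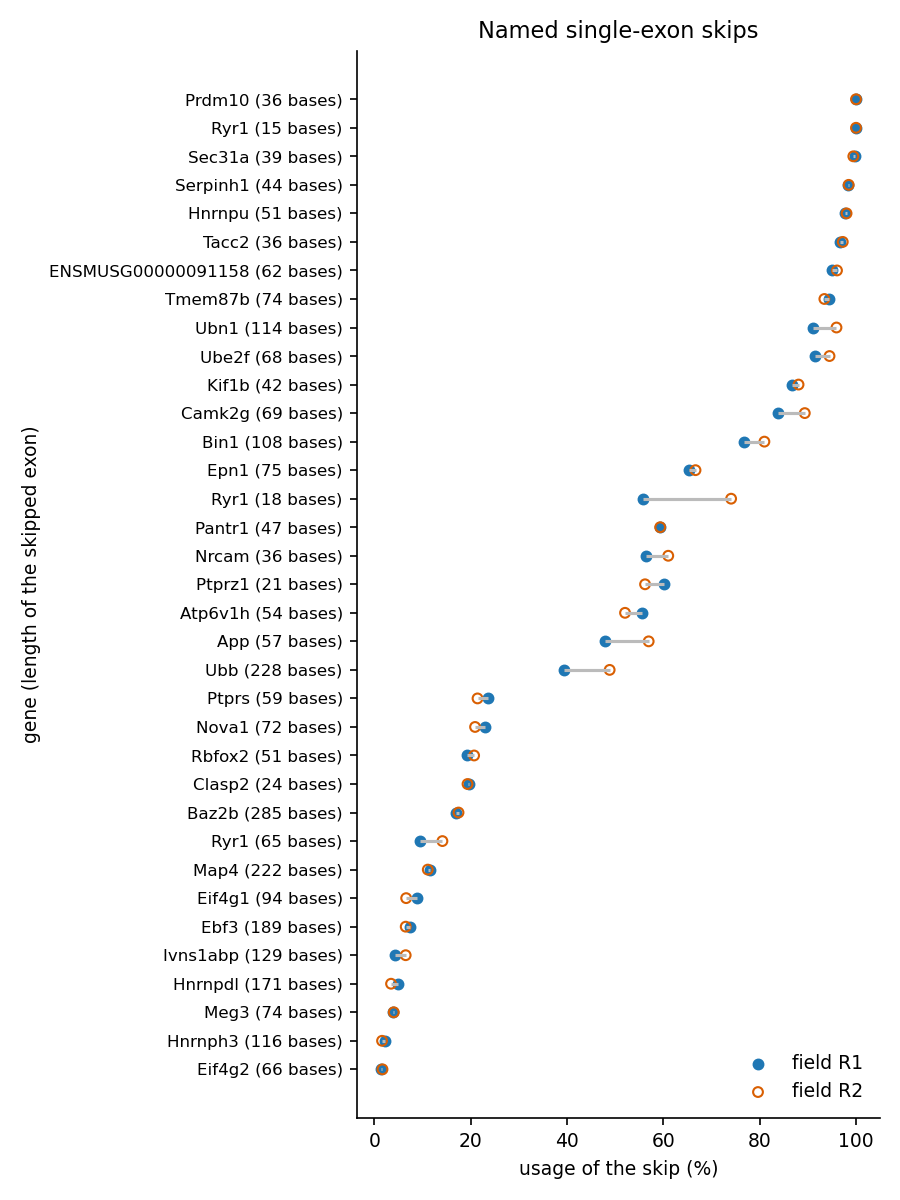
Usage in percent on the horizontal axis for each single-exon skip chosen by the rule on reads, usage and gene lists, with the gene and the length of the skipped exon on the vertical axis. Filled points are field R1, open points field R2, and a line joins the fields. Most pairs of points lie close together, and of the skips plotted the 18-base exon of Ryr1 is farthest apart, at 55.9 and 74.1%.

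Microexons of at most 27 bases were the skipped exon in 57 of 2003 unannotated skips (2.85%), in 7.34% of annotated skips and in 1.45% of all 155424 internal exons of expressed genes. Their median usage was 43.6%, against 8.04% for all unannotated single-exon skips, and 24 of 57 had a usage of at least 50% in both fields. The set reached down to 2 bases, and skips without any inclusion read count as 100% usage. In Dnm1 (2 bases) such a skip took 26.4 and 12.2% of the reads at its acceptor and 12.9 and 6.25% at its donor. In Nav2 (9 bases), also without an inclusion read, the skip took 100% at both ends. The lengths of 48 of the 57 (84.2%, interval 72.6 to 91.5%) were multiples of 3, close to the 85.3% of microexons left out by annotated skips. The 6 microexon members with the most reads are described next, followed by others picked after their values were seen.

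Ptprz1, a receptor phosphatase of radial glia, had 341 reads in R1 and 824 in R2 on the skip of 21 bases (chromosome 6, exon 22974714 to 22974734), at 60.1 and 56.2% usage. Csnk1g3, a kinase of the casein kinase 1 family, had 186 and 353 reads on a skip of 24 bases at 39.6 and 47.6%. Srcin1, an inhibitor of Src kinase found at synapses, had 194 and 280 reads on a skip of 24 bases at 57.9 and 60.7%. Kifc3, a kinesin, had 160 and 241 reads on a skip of 27 bases at 73.4 and 83.8%. Ptprk, another receptor phosphatase, had 148 and 216 reads on a skip of 18 bases at 77.3 and 81.5%. Cacna2d3, an auxiliary subunit of calcium channels, had 123 and 129 reads on a skip of 18 bases at 53.7 and 46.2%. In each of these 6 genes the skip and the inclusion were both common, and the fields lay farthest apart in Kifc3.

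Nbea, a scaffold protein of neuronal membrane traffic, skipped an exon of 9 bases with 79 and 112 reads at 99.4 and 100% usage. At the other end, Robo1, a guidance receptor of growing axons, had 80 and 77 reads on a skip of 27 bases at 10.8 and 7.50%, and Dctn1, a subunit of the dynein motor's partner dynactin, 63 and 131 reads on a skip of 18 bases at 8.62 and 11.96%. An inclusion read of such an exon has to cross 2 joins within a few bases, and whether reads were lost there was not tested.

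The length of skipped exons changed with usage. Of all unannotated single-exon skips, 732 of 2003 (36.5%, interval 34.5 to 38.7%) left out a multiple of 3 bases, against 53.7% of annotated skips and 40.0% of all internal exons. The share was 35.0% at a usage under 5%, 31.6% from 5 to 20%, 38.5% from 20 to 50% and 56.9% (interval 50.2 to 63.5%) above 50%. Annotated skips had 47.0, 47.5, 63.7 and 53.0% in the same ranges. For exons that lie wholly in coding sequence, the unannotated skips had 36.1, 29.4, 37.6 and 67.0% (103 exons in the last range), and annotated ones 46.9, 48.1, 70.4 and 78.2%. These are shares of exons with counting intervals, not a test between groups of samples.

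**Figure D4:**
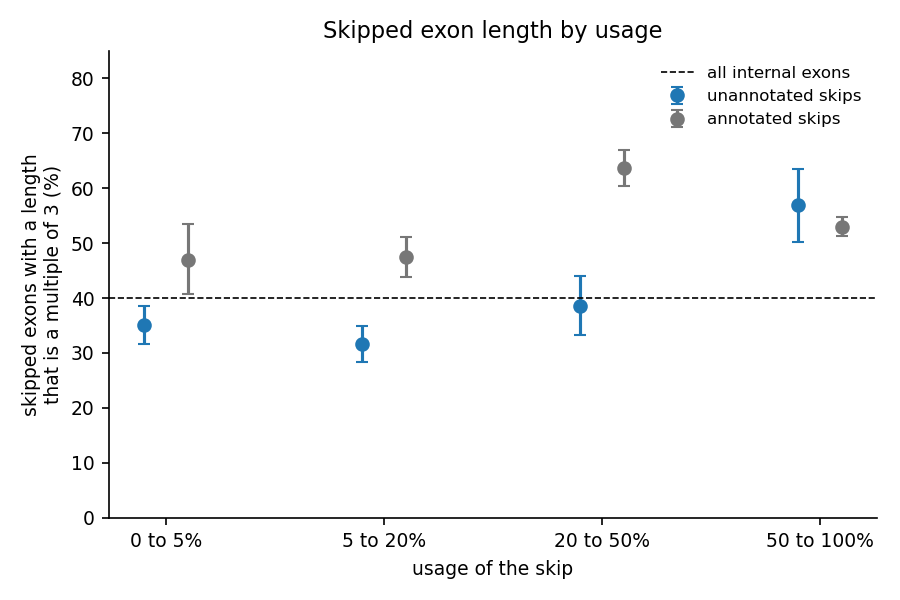
Points give the percentage of skipped exons whose length is a multiple of 3, by usage of the skip, with 95% Wilson intervals as bars, for unannotated and annotated single-exon skips. The dashed line is the 40.0% of all internal exons of expressed genes. Unannotated skips lie below it at a usage under 20% and above it, at 56.9%, at a usage over 50%.

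Skipped exons of members resembled other exons in what else could be read from their sequence. The last base was G in 77.9% of 1869 skipped exons with a sequence, against 80.2% of all internal exons, and the mean GC content was 51.0 against 50.8%. Their median length was 107 bases, against 93 for annotated skips and 123 for all internal exons.

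Splicing regulators were themselves hosts of members. Of 28 measured genes of this list 15 held at least 1 member within the gene (53.6%), against 1951 of 14198 expressed genes (13.7%). The list's genes were also deeply covered, with a median of 19253 annotated junction reads per gene against 2955, and the share of genes with a member was 2.76, 8.26, 16.6 and 27.4% in 4 equal groups of genes ordered from the fewest to the most annotated reads. Nova1, a neuronal splicing factor, left out its 72-base exon in 236 and 250 reads (chromosome 12, 47801961 to 47821676), at 22.9 and 20.9% usage. Rbfox2, another factor of this kind, skipped an exon of 51 bases in 113 and 178 reads at 19.3 and 20.7%. Its inclusion junctions were unequal, with 684 and 1068 reads on one side and 260 and 294 on the other, and the skip took 30.1 and 37.6% of the reads at its donor but 5.98 and 6.78% of those at its acceptor. Qk, which acts in glia and progenitors, had 228 and 470 reads on a join between ends of different transcripts. An mm10 transcript of the gene with an intron of this length had 44.7 and 49.0 TPM.

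SR proteins and hnRNPs, the general regulators, had members in 10 of 30 genes (33.3%), at a median of 29195.5 annotated junction reads per gene. Beside this, 27.4% of genes had a member in the most deeply covered of the 4 groups. The median usage of the list's single-exon skips was 1.96%. Hnrnpu, a nuclear RNA-binding protein, stood far above that median, with 189 and 275 reads at 97.7 and 98.0% for an exon of 51 bases. Hnrnpdl had 179 and 186 reads at 5.01 and 3.48%, and Hnrnph3 38 and 39 reads at 2.28 and 1.61%.

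Neuronal cytoskeleton genes (median 27690.5 annotated junction reads per gene) held members in 11 of 40 genes (27.5%), beside 27.4% in the most deeply covered of the 4 groups. Their 14 single-exon skips had a median usage of 31.4%, and all 14 left out a multiple of 3 bases, beside the 36.5% of all unannotated single-exon skips. Kif1b, a kinesin that carries vesicles along axons, skipped 42 bases in 165 and 251 reads at 86.6 and 88.1%, and took 58.1 and 55.9% of all reads at its donor. Clasp2, which stabilises microtubule ends, skipped 24 bases in 99 and 132 reads at 19.7 and 19.4%, and Map4, a microtubule-associated protein, skipped 222 bases in 101 and 116 reads at 11.5 and 11.1%.

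Adhesion and guidance receptors (median 19215 annotated junction reads per gene) held members in 13 of 39 genes (33.3%). Beside this, the share was 27.4% in the most deeply covered of the 4 groups and 13.7% over all expressed genes. The list's 19 single-exon skips had a median usage of 9.23%. Of these skips 12 left out a multiple of 3, beside 36.5% of all unannotated single-exon skips. Nrcam, an adhesion molecule of axons, had 166 and 310 reads on a skip of 36 bases at 56.4 and 61.0%, and 31.6 and 38.5% of all reads at its acceptor. Ptprs, a receptor phosphatase of axons, had 333 and 502 reads on a skip of 59 bases. Its usage of 23.7 and 21.4% joins unequal parts, since the inclusion junctions had 71 and 133 reads on one side and 2076 and 3548 on the other.

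Synapse and vesicle genes (median 12198 annotated junction reads per gene) held members in 18 of 40 genes (45%). Beside this, the share was 27.4% in the most deeply covered of the 4 groups and 13.7% over all expressed genes. Of the list's 28 members 11 were in the later annotation, beside 593 of all 2499 members within 1 gene (23.7%). In the lists above, in order, these counts were 6 of 21, 4 of 13, 6 of 20 and 6 of 26. In the lists below, in order, they were 3 of 10, 2 of 13, 0 of 5, 1 of 4 and 1 of 10. Camk2g, a calcium-dependent kinase, skipped a coding exon of 69 bases in 294 and 353 reads at 83.9 and 89.4%, and took 50.6 and 49.7% of all reads at its acceptor. Bin1, which bends membranes in endocytosis, had 4 members, the largest with 433 and 643 reads on a skip of 108 bases at 76.8 and 81.0%, and the others with 14 to 42 reads per field.

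Signalling genes (10 of 35), chromatin and transcription genes (8 of 39) and translation genes (4 of 25) held members in 28.6, 20.5 and 16.0% of genes. Beside these, the share was 27.4% in the most deeply covered of the 4 groups and 13.7% over all expressed genes. The medians of annotated junction reads per gene were 17978, 14133 and 38860 in these lists. Besides App, Src and Tsc2 were the largest of the first list, with 32 and 60 reads and 40 and 47 reads. Phf21a, a chromatin factor, had 147 and 180 reads, Ebf3, a factor of neuronal identity, 111 and 84 reads at 7.49 and 6.52%, and Baz2b 30 and 41 reads at 17.0 and 17.5%. At the acceptor the skip in Ebf3 took 12 and 9.81% of all reads and that in Baz2b 28.0 and 26.1%. Of the translation factors, Eif4g2 had 52 and 97 reads at 1.43 and 1.70%, Eif4g1 had 59 and 63 reads at 8.90 and 6.61%, and the ribosomal protein gene Rpl22 had 28 and 34 reads on a member that skips no exon. Multiples of 3 were left out in 5 of 15 single-exon skips of splicing regulators, 9 of 12 of SR proteins and hnRNPs, 14 of 18 of synapse and vesicle genes, 2 of 5 of signalling genes, 5 of 8 of chromatin and transcription genes and 1 of 2 of translation genes. Over all unannotated single-exon skips the share was 36.5%.

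Genes of other tissues held members too. Of the sarcomere list 2 of 20 genes did (10%), the giant filament gene Neb and Ryr1, with 3 members in Ryr1, and 3 of the 4 skips left out a multiple of 3. Besides its 15-base exon, Ryr1 skipped exons of 18 bases (50 and 70 reads, 55.9 and 74.1%) and of 65 bases (23 and 35 reads, 9.54 and 14.1%). Of the extracellular matrix list 7 of 25 genes did (28.0%), at a median of 31669 annotated junction reads per gene (2589 for the sarcomere list). The share was 13.7% over all expressed genes and 27.4% in the most deeply covered of the 4 groups. In the matrix genes 2 of 3 single-exon skips left out a multiple of 3, beside 36.5% of all unannotated single-exon skips. After scaling by all junction reads, 9 of the 10 members in matrix genes were lower in R2, with a median log2 ratio of R2 to R1 of -1.42. Annotated junctions of these genes had the same median, -1.42, and Col1a1 stood at 311 TPM in replicate 1 and 125 TPM in replicate 2. Fewer cells of a type and less RNA per cell cannot be told apart in such tissue.

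The members that skipped the most exons lay mainly in collagens. Col1a1, a fibrillar collagen, had a skip of 17 exons with 43 reads in R1 and 21 in R2 and one of 11 exons with 57 and 30 reads. Col12a1 skipped 15 exons in 65 and 28 reads, Col3a1 skipped 13 in 26 and 10 reads, and Napg, a factor of vesicle fusion, skipped 7 in 14 and 19 reads. A member in Gon4l tied with Napg at 7 exons, with 124 and 173 reads. Collagen exons encode a repeated unit, and the first 15 bases after the join differed from those of the donor's own next exon at 0 positions in the 17-exon skip of Col1a1 and at 1 in Col3a1. Such likeness, at most 3 differences on either side, was present in 16 of 1857 single-exon skips (0.862%) and in 3 of 30 skips of 4 or more exons (10%). Its part in these counts was not tested. The matrix glycoprotein gene Tnc skipped 5 exons in 153 and 110 reads, with 11 and 7 of 15 bases different.

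The 141 members without a skipped exon combined ends that lie in different transcripts with no whole exon between them, and 41 (29.1%) were in the later annotation. Klc1, the light chain of kinesin, led with 2920 reads in R1 and 3935 in R2 (chromosome 12, 113027671 to 113031859). It took at least 90% of the reads at its donor in both fields, and 69.3 and 67.4% at its acceptor, where an exon of 33 bases begins. Gria2, an AMPA-type glutamate receptor subunit, joined 2 exons of 115 bases each in 299 and 699 reads. These took 64.9 and 69.8% of the reads at the acceptor and 52.3 and 62.8% of those at the donor. A transcript of the gene with an intron of this length, 801 bases, had 29.6 and 34.8 TPM in the mm10 table. Trp53i11 had 385 and 513 reads, and Xpo1, a nuclear export receptor, had 177 and 251.

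The 695 joins between 2 genes were sorted by sequence likeness. In 619, here called joins between related genes, the genes shared at least 20% of their 25-base words or the joined exon equalled in length the gene's own exon at that place. In 29 the genes shared under 1% and the exon lengths differed, and 47 could not be resolved. Of the 619, 318 met the threshold on words, 113 shared less than that but at least 1%, 13 shared under 1%, and for 175 a sequence was missing, so that these last 3 sets rest on exon length. Red blood cell genes led the 619. The alpha-globin genes Hba-a1 and Hba-a2, which share 93.6% of these words, were joined by 65046 reads in R1 and 44225 in R2 (chromosome 11, 32184129 to 32197079). The annotated junction at the same acceptor had 65063 and 44228 reads, and that at the same donor 73869 and 50124. A neighbouring join of the same genes had 33665 and 25991 reads, beside 33731 and 26082 at the donor and 33748 and 26066 at the acceptor.

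The beta-globin genes Hbb-bt and Hbb-bs showed near equality at the acceptor, with 40452 and 28568 reads on the join and 40450 and 28576 on the annotated junction there. The annotated junction at the same donor had more, 68674 and 50990. The tubulin genes Tuba1b and Tuba1a, which build microtubules of neurites, were joined by 22677 and 33772 reads. The annotated Tuba1b junction at the same acceptor had 22358 and 34005, and that at the same donor 67629 and 100246. For all of these the first 50 bases of the acceptor exon differed from those of the donor's own next exon at no position, or at 1 in the tubulin pair.

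Over the 619 joins, 228 (36.8%) lay within 5% of the annotated junction at the same donor or the same acceptor in both fields. Among single-exon skips 1 of 2003 (0.0499%) lay that close to an inclusion junction. The median log2 ratio of a join to the annotated junction of its donor was -0.02, against -3.33 for skips to their inclusion junction. Where up to 50 bases on each side could be read, in 453 of the 619, 327 (72.2%) had no difference from the gene's own exon on at least 1 side. So the counts of these joins cannot be told apart from those of the annotated joins inside each gene by the sequence on that side, and they are uncertain. Whether the same reads were counted at both places was not tested.

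**Figure D5:**
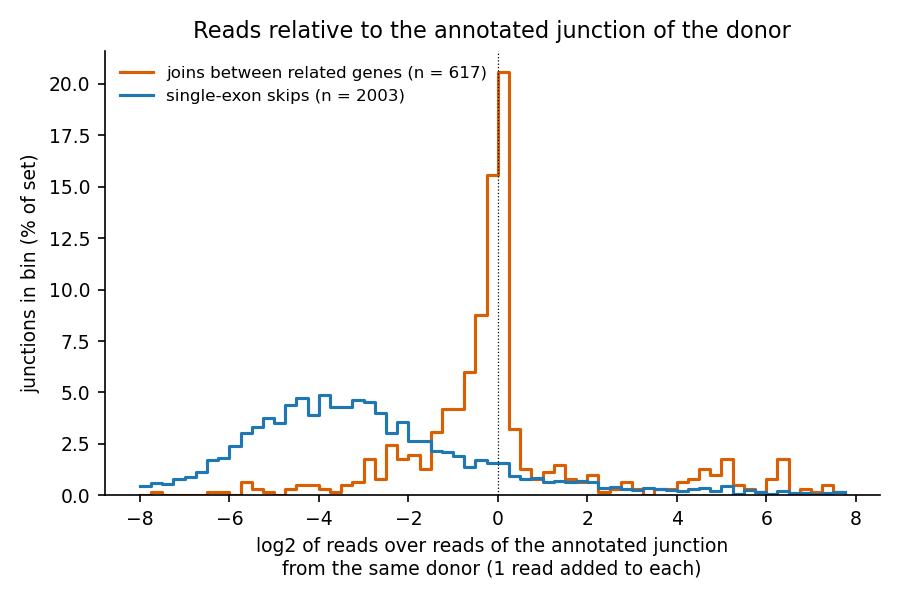
The horizontal axis gives the log2 ratio of a member's reads (R1 and R2 summed, plus 1) to those of the annotated junction from the same donor, and the vertical axis the percentage of each set per narrow bin of equal width. Joins between related genes (617 with such a junction) peak at 0, with a median of -0.02, and single-exon skips spread around a median of -3.33.

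The 619 joins came from 318 gene pairs, among them genes with several copies in a row. Gon4l and 5830417I10Rik, which share 80.4% of 25-base words, had 22 joins, with 2992 reads in R1 and 4047 in R2. Genes of the signal recognition particle, Srp54c and Srp54a, had 15, with 6011 and 8516 reads, and each had 14 more with an unnamed gene between 75140 and 154605 bases away. Acat3 and Acat2 had 7 joins with 3658 and 5012 reads, and Mfap1b and Mfap1a 7 with 2348 and 3567. The 24-base exon of Gon4l was skipped by 92 and 114 reads, and that of 5830417I10Rik by 92 and 115. An exon of 151 bases was skipped by 10 and 26 reads in each of these genes. Both copies count among the single-exon skips, so members within copied genes are uncertain too. Whether the same reads were counted in both genes was not tested. The longest member, 678207 bases between the zinc finger genes Zfp708 and Zfp85 on chromosome 13, had 20 and 10 reads, and its join had no base different from either gene's own over 50 bases. The other 4 of the 5 longest, of 596863 to 642837 bases, had 14 to 252 reads in R1 and 29 to 345 in R2; 3 of these counted among the 619 and 1 was unresolved.

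The 29 joins between genes that shared under 1% of 25-base words, with unequal exon lengths, had few reads, 1511 in R1 and 1554 in R2 in all. In 27 no other gene of the strand lay between. This measure does not set apart all genes of 1 family, and pairs of beta-globin genes held the most reads of the 29. The beta-globin genes Hbb-bs and Hbb-bh3 had the most, with 717 and 619 reads. Next came Hbb-bt, another beta-globin gene, with Hbb-bh3 (226 and 237 reads), followed by Dynll2, a dynein light chain, with Gm11508 (72 and 93), the RNA-binding protein genes Hnrnpd and Hnrnpdl (52 and 68), the proton pump gene Atp6v0c with Tbc1d24 (41 and 72) and the ubiquitin ligase genes Fbxo6 and Fbxo44 (41 and 51). The radial glia gene Fabp7 was joined to Smpdl3a by 15 and 25 reads, which were 0.144% of the reads at that end of Fabp7 in R1. None of the 29 was found in the later annotation, but the search looked inside single genes and could rarely find such joins. Some of the 13 related pairs with under 1% of words in common also differed at the join, chosen here after their values were seen. The G protein genes Gna15 and Gna11 were joined by 44 and 83 reads, with 15 of 50 bases on the acceptor side and 16 of 50 on the donor side different from the other gene's own exon. The corepressor genes Aes and Tle2 were joined by 55 and 102 reads, with 13 bases different on the acceptor side and 19 on the donor side.

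Many skips were in the later annotation. An intron of the same length in the same gene was found in GENCODE M21 for 598 of 3194 members (18.7%), against 99.1% of annotated junctions. A length 1 base greater was found for 0.250% of members and 1.55% of annotated junctions. The share was 23.7% for skips within a transcript, 29.1% for members that skip no exon and 0.323% for joins between related genes. The search looked for an intron inside a single gene, so it could rarely find a join between 2 genes. No conclusion is drawn from the share for such joins. Among single-exon skips it was 14.3% at a usage under 5%, 26.2% from 5 to 20%, 33.3% from 20 to 50% and 39.2% above 50%. For 167 of the 598, a transcript with an intron of that length was in the deposited mm10 tables. For 134 of these the transcript had at least 1 TPM in both replicates. Gene models assembled by the authors held 260 members (8.14%) and 73.8% of annotated junctions.

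The fields were close for most members. After scaling by all junction reads, the median log2 ratio of R2 to R1 was -0.01, and it was -0.00 for annotated junctions. Among the 387 members with a mean of at least 100 reads, 1 was at least 2-fold lower in R2 and 0 were at least 2-fold higher, against 2.36% and 0.244% of all junctions of that depth. The low one was Ltbp3, a binding protein of a growth factor, with 130 and 73 reads (log2 ratio -1.27). Next to it were the join of Hba-a1 with Hba-a2, just under 2-fold lower, and then the join of Hbb-bt with Hbb-bs, Tnc and Serpinh1, at log2 ratios of -0.94, -0.92 and -0.89. The highest were the ubiquitin gene Ubb with 67 and 182 reads (1.00, just under 2-fold), E130307A14Rik with 109 and 295, Ivns1abp with 61 and 165, and joins of Cyp4f16 with Cyp4f37 and of Ppp1r10 with Gm8801. The skip in Ubb has 228 bases in a gene of repeated ubiquitin units, so its placement is uncertain. With 1 library per field these differences carry no p-value.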

How the data were processed

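The authors deposited, on mm9, a junction table with read counts in 2 fields and an exon table of Ensembl release 65, and on mm10 tables with TPM per gene and transcript (GENCODE M4), per the file headers and the submitters' processing notes. The deposited counts are whole reads per junction, the deposited TPM are the authors' values, and the aligner is not given in the sources used here. The fields R1 and R2 are not matched to replicates 1 and 2 by any label.

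Members and gene lists were chosen with earlier results of these data known. Introns were built from adjacent exons of each transcript, and they matched the table's own annotation flag in all 191738 lines. Members were classed by the genes and exons between their ends (1200 of 1200 simulated junctions were classed as made). Symbols were found for 2279 of 2392 member genes. Exon sequences came from GENCODE M21 transcripts with the same identifier and exon lengths (68855 of 82357 multi-exon transcripts), so no intron bases were read, and 2775 members had sequence on both sides. Wilson intervals reflect counting alone and treat each junction or exon as independent. Several members can come from 1 gene or gene pair, so the intervals can be too narrow. Without molecular identifiers, several reads can also come from 1 molecule.

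Named members are, in each class, the 5 with most reads, the 10 single-exon skips of highest usage at a mean of at least 100 reads, the 3 with most reads in each gene list, the 5 that skip most exons, the 5 longest, and the 5 highest and 5 lowest log2 ratios of R2 to R1. Others were chosen after their values were seen, and 1 member that the rule names is not reported here. No test was made, since there is 1 group. Alternatives were other read minima, stricter ends, other usage denominators, other scalings and each field alone. Python 3.11.15, pandas 2.3.3, numpy 2.4.6, scipy 1.17.1 and matplotlib 3.10.9 were used.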

Additional observations from a re-analysis of the deposited data

How the results depend on the processing

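No paired analysis was possible because there is 1 group. Raising the minimum to 20 and 50 reads per field left 1665 and 635 members, and 5 reads gave 5605. Counting either field alone gave 3683 to 4793. Skips within 1 gene were 78.2% at 5 reads, 68.2% at 20 and 56.9% at 50 (73.6 to 77.8% with either field alone). Joins between 2 genes were 17.9, 26.5 and 36.7% (18.2 to 22.2%). Multiples of 3 stayed between 34.5 and 38.1% in 6 of 7 alternatives and were 46.5% at 50 reads. Median usage was 5.21, 12.2 and 22.5% at 5, 20 and 50 reads, 5.97 to 7.55% with either field alone, 6.74% with the larger inclusion junction, 7.78 and 7.41% as the share at the left and right end, and 7.43% where every inclusion junction had a read. Without scaling, the median log2 ratio of R2 to R1 was 0.43. For named skips, the share at the left end moved usage by a median of 3.09 percentage points and up to 58.0, and that at the right end by 1.96 and up to 30.3. Biotypes are not listed in the exon table, so the alternative by biotype used GENCODE M21 gene types instead. The added alternatives (coding exons, protein-coding genes, inclusion reads in every field, 1 gene only, any exon edge with 3215 members) were chosen after seeing the data. Depth sets the lower limit of usage that 10 reads can show, which is lower in deeply covered genes.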

Other observations

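Several genes held more than 1 member within the gene (386 of 1951), and E130307A14Rik had the most, with 8 members and 291 reads in R1 and 643 in R2. Eif4g3, a translation initiation factor, had 7, with 231 and 262 reads. Agrn, the proteoglycan that gathers receptors at the nerve-muscle synapse, had 4 single-exon skips. The skip of its 24-base exon had 76 and 96 reads at 10.9 and 12.5% usage and took 3.57 and 3.66% of all reads at its donor, and the skips of its exons of 97, 104 and 128 bases had 10 to 19 reads per field and a usage of 0.276 to 1.57%.

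Ptbp2, a splicing repressor of young neurons, left out its exon of 34 bases in 118 and 148 reads, at 7.25% usage in R1 and 4.80% in R2. Rbfox1, a neuronal splicing factor, skipped an exon of 81 bases in 101 and 183 reads at 19.6 and 24.6%, and one of 40 bases in 21 and 28 reads at 2.75 and 2.82%. Neb, the giant filament protein of muscle, had 10 reads in R1 and 29 in R2 on a skip of 114 bases, at 18.3 and 69.9% usage, which was the widest gap between fields of the members named here.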
